A study of Mus musculus with 22 samples.

Results

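Osteopontin and its matricellular companions were followed here as 9 genes, out of 48709 genes in the count tables, across 6 genotype groups of embryonic mouse heart ventricle. The genes were taken by name from the count tables of both RNA-seq experiments. They are Spp1 (osteopontin), Postn (periostin), Tnc (tenascin C), Thbs1 and Thbs2 (thrombospondins), Sparc, Sparcl1, Smoc1 and Smoc2. Spp1 was chosen by its measured rise in double knockout ventricles, so that its values in experiment 2 are given as a description without a test. Experiment 1 holds other libraries, and its LIN9 comparison was tested for all 9 genes.

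The RNA came from ventricles of mouse embryos at E13.5, with 3 libraries in each group and 18 in all. Every group carried Nkx2.5-Cre, a recombinase driven from the Nkx2.5 locus that acts in cardiac precursor cells. The floxed Lin9 allele loses exon 7 and the floxed Sav1 allele loses exon 3. Experiment 1 compared LIN9 wt with LIN9 KO ventricles, and its labels name no Sav1 genotype. Experiment 2 held 4 groups: LIN9 wt with Sav1 wt (the control), LIN9 wt with Sav1 KO, LIN9 KO with Sav1 wt, and LIN9 KO with Sav1 KO (the double knockout). The study's text and legends give the LIN9 wt animals as Lin9 fl/+, whereas the labels call them wild-type. LIN9 is a subunit of MuvB, the core of the Myb-MuvB complex that switches on genes of G2 and mitosis, and SAV1 is the scaffold of the Hippo kinases that restrain YAP. A legend of the study describes the LIN9 comparison as 2 biological replicates with triplicates within each. Whether the 3 libraries of a group came from separate embryos is not given in the sources used here, so p-values measure the spread between these libraries, which may be technical. Ventricle is a mixed tissue, and because Cre acts in the cardiac lineage, a change can arise in cells that kept both genes.

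Matricellular proteins are secreted into the extracellular matrix, where they modulate the contact between cells and collagen rather than serving as structural fibres. Many of them are made at high level during development, are low in the resting adult tissue and return after injury. Osteopontin is a phosphorylated glycoprotein that binds integrins through an RGD motif and also CD44, and is made by macrophages, bone cells and stressed muscle. In the heart, periostin and tenascin C are known from cushion mesenchyme, fibroblasts and sites of remodelling, the thrombospondins from vessels and fibroblasts, and SPARC from most cells that lay down collagen.

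The genes lie at 7 places in the mm10 genome, by the GENCODE M21 annotation. Spp1 (ENSMUSG00000029304) occupies chr5:104435118-104441050 on the plus strand. Sparcl1 (ENSMUSG00000029309) lies 321384 bases before it at chr5:104079111-104113733 on the minus strand, and the bone and tooth genes Dspp, Dmp1, Ibsp and Mepe lie between them. These 4 relatives of Spp1 had almost no reads, with 1 read on Dmp1 and 0 on each of the others over all 18 libraries. Smoc2 (ENSMUSG00000023886, chr17:14279506-14404790, plus strand) and Thbs2 (ENSMUSG00000023885, chr17:14665500-14694235, minus strand) lie 260709 bases apart with no protein-coding gene between them. The other members stand alone. Postn (ENSMUSG00000027750) is at chr3:54361109-54391037, Thbs1 (ENSMUSG00000040152) at chr2:118111876-118127133 and Smoc1 (ENSMUSG00000021136) at chr12:81026808-81186414, all on the plus strand. Tnc (ENSMUSG00000028364) is at chr4:63959785-64047015 and Sparc (ENSMUSG00000018593) at chr11:55394500-55423183 on the minus strand. Of the Spp1 exons, 18.8% lie under the annotated gene Gm42793, which is listed at 0 in all 18 libraries. Likewise 3.42% of the Thbs1 exons lie under Gm29233, listed at 0, and 2.26% of the Tnc exons under 8030451A03Rik, with 26 reads over all libraries.

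MuvB reaches DNA through LIN54 at the cell cycle homology region, read here as TTTGAA, and YAP acts through TEAD factors, whose motif was read as GGAATG. Both strands were searched, so that TTCAAA also counts as the first motif. RefSeq start site windows of 300 bases (250 before to 50 after a start, GRCm38.p6) were at hand for 5 of the 9 genes, 8 windows in all. Thbs1, Sparcl1, Smoc1 and Smoc2 were not among them. TTTGAA occurred in 2 of the windows, a Postn window upstream of the annotated gene and a Spp1 window inside the gene, and GGAATG in 0. Over all 32851 mouse windows, 17.9% held TTTGAA and 14.7% held GGAATG. A match describes these letters alone. The windows with a match are printed with both Spp1 starts, since Spp1 is the gene with the greatest difference, with the motif in capitals and the strand of the gene.
Spp1, chr5:104434861-104435160, plus strand, at the annotated start: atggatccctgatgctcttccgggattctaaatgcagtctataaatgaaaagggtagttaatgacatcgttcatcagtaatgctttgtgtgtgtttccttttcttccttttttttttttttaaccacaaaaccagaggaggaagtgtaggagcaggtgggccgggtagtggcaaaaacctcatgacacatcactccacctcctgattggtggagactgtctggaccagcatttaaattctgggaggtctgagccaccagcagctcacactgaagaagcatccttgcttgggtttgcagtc
Spp1, chr5:104435942-104436241, plus strand, inside the gene: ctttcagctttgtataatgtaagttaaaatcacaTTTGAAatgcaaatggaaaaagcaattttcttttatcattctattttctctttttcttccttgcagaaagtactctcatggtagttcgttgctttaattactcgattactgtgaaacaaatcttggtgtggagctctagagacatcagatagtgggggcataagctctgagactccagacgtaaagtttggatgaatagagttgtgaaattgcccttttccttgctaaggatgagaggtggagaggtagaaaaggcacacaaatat
Postn, chr3:54359017-54359316, plus strand, upstream: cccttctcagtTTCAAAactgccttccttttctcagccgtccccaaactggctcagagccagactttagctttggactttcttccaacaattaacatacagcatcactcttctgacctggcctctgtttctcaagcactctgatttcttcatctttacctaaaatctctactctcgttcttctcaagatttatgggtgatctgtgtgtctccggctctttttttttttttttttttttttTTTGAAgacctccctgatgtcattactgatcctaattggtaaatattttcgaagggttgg

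The count tables hold whole reads per Ensembl gene. Total counts lay between 9485599 and 9615274 per library in experiment 1 and between 2770741 and 2999877 in experiment 2, so low genes are measured more coarsely in the second. Levels are given as CPM, the reads of a gene per unit of TMM-normalized library size, and errors of levels are SD over 3 libraries. Fold changes are log2 values from edgeR's quasi-likelihood test with their SE, and a gene was called at a Benjamini-Hochberg adjusted p under 0.05 over all genes tested. Lin9 itself fell in experiment 2, from 26.8 ± 3.23 to 15.5 ± 2.38 CPM (log2 fold change -0.80 ± 0.19, adjusted p = 0.0027). It did not pass in experiment 1 (-0.31 ± 0.14, adjusted p = 0.130) or between the Sav1 KO groups (-0.16 ± 0.18, adjusted p = 0.586). Double knockouts stood at 22.7 ± 3.85 CPM of Lin9 and overlapped with controls. Every double knockout lay above every LIN9 KO library for Lin9, a difference that did not pass (0.56 ± 0.20, adjusted p = 0.238). Sav1 stood at 57.5 ± 3.88 CPM in controls, 40.7 ± 3.98 in Sav1 KO and 42.3 ± 1.73 in double knockouts. Its decrease did not pass with LIN9 (-0.50 ± 0.12, adjusted p = 0.318) or without it (-0.23 ± 0.12, adjusted p = 0.464), although Sav1 libraries did not overlap in either background. From control to double knockout Sav1 fell by 0.44 on the log2 scale (SE 0.12, adjusted p = 0.0087). Of the Sav1 exon bases, 25.4% also lie under Atl1. Counts span all exons of both genes, and therefore do not measure the loss of the floxed exons.

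Osteopontin mRNA was scarce in ventricles with LIN9 and about an order of magnitude more abundant without it. In experiment 1, the LIN9 wt libraries stood at 2.47, 2.00 and 5.09 CPM and the LIN9 KO libraries at 23.4, 16.0 and 31.5 CPM. The lowest LIN9 KO library lay above the highest LIN9 wt library. The means were 3.19 ± 1.66 and 23.6 ± 7.71 CPM, a ratio of 7.42, and the test gave a log2 fold change of 2.89 ± 0.36 (adjusted p = 0.00092, edgeR). These values rest on 19 to 49 reads in LIN9 wt and 153 to 306 reads in LIN9 KO libraries.

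In experiment 2 the 4 genotypes were ordered without overlap for Spp1. Control libraries stood at 2.33, 2.06 and 3.46 CPM, which is 6 to 10 reads. Sav1 KO libraries stood at 4.37, 4.39 and 4.09 CPM, or 12 to 13 reads. Single Sav1 loss was thus a step of 1.64-fold in means over a very low base. LIN9 KO libraries stood at 30.6, 25.3 and 22.4 CPM. Double knockouts stood at 43.6, 40.5 and 44.5 CPM and were the highest of all libraries. The means of the 4 groups were 2.61 ± 0.744, 4.29 ± 0.167, 26.1 ± 4.16 and 42.9 ± 2.09 CPM. LIN9 loss went with a ratio of 9.97 with Sav1 and 10.0 without it, and Sav1 loss with 1.64 in either LIN9 background, as chosen values without a test. The fitted interaction on the log2 scale was 0.01, with an SE of 0.37 combined from the SE of both Sav1 differences. Without replicate 3 of the control group, the highest of the 3, the fitted LIN9 difference moved from 3.30 to 3.55 the Sav1 difference in LIN9 wt from 0.71 to 0.95 and the interaction from 0.01 to -0.24.

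**Figure D1:**
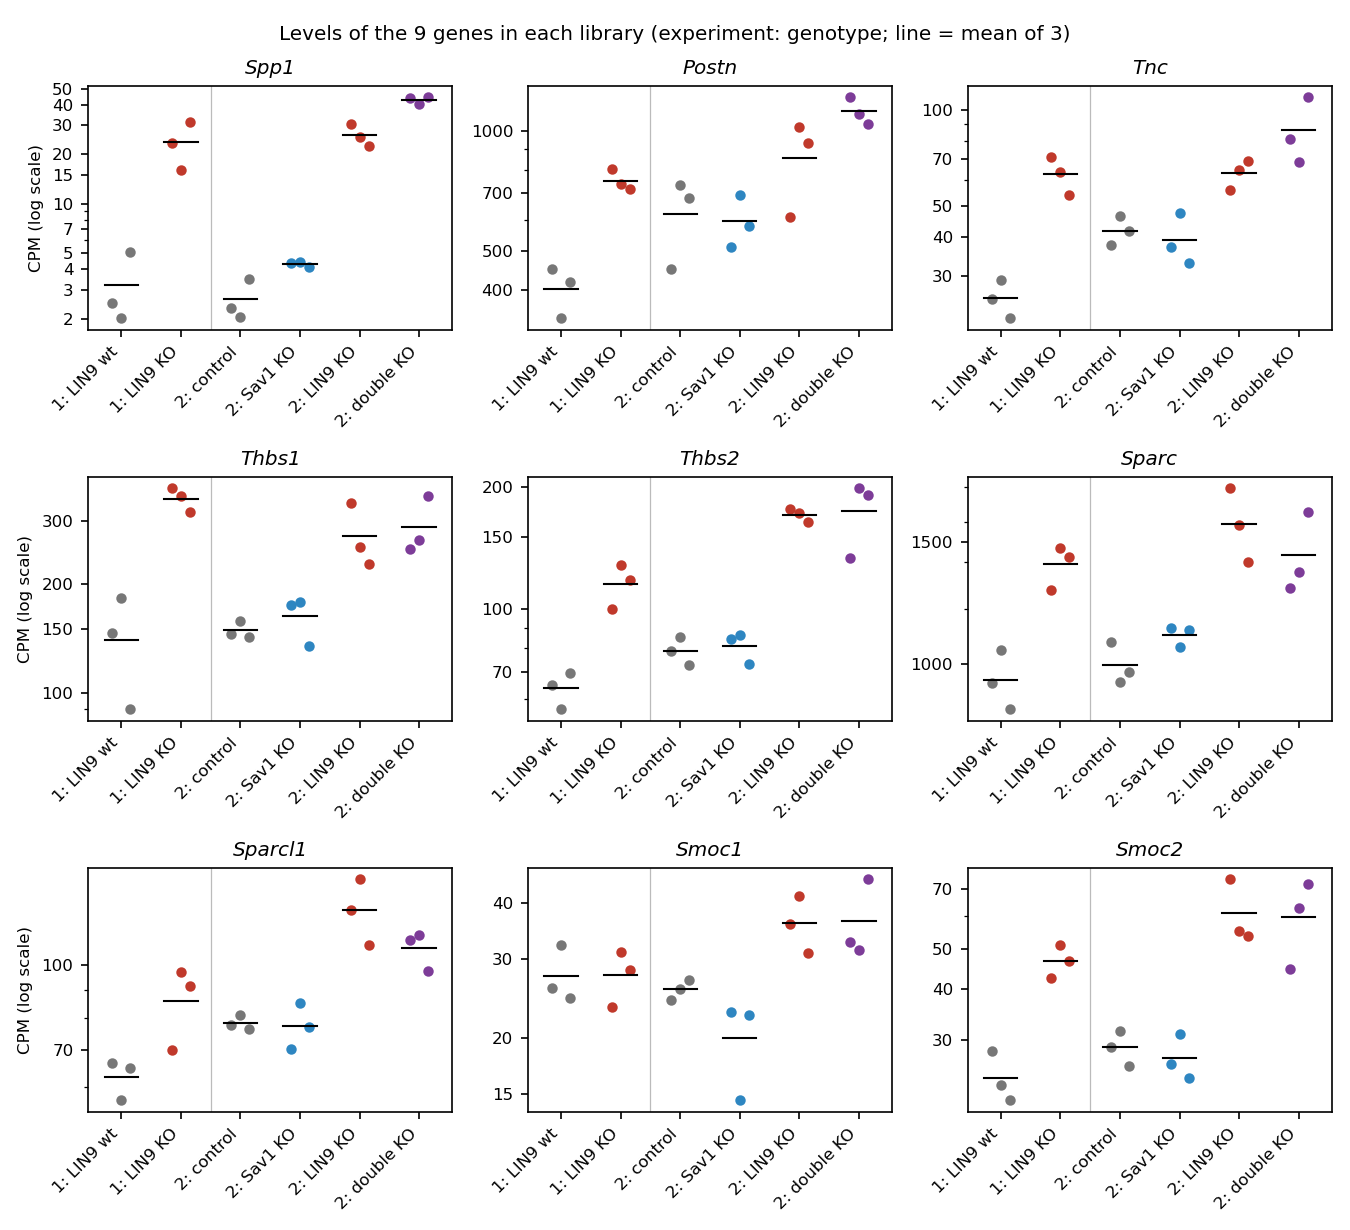
Level of each of the 9 genes in every library, in CPM on a log scale, with experiment 1 on the left of the grey line and experiment 2 on the right; points are libraries and lines are means of 3. Spp1 moves from between 2.00 and 5.09 CPM in LIN9 wt of experiment 1 and controls of experiment 2 to 40.5 CPM or more in double knockouts, while Postn and Sparc are abundant in all groups.

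Relative to gene length, Spp1 changed its place among the 9 genes. Levels were divided by exonic length to give CPM per kilobase. In controls of experiment 2, Sparc led with 263 CPM per kilobase, followed by Postn at 71.5, Sparcl1 at 26.7, Thbs1 at 24.5 and Thbs2 at 11.3. Smoc1 at 7.34, Tnc at 5.37 and Smoc2 at 4.14 came next, and Spp1 was the ninth at 1.59. In double knockouts Sparc stood at 378, Postn at 129, Thbs1 at 47.5 and Sparcl1 at 36.5, and Spp1 was the fifth at 26.0. The spans of Spp1 (24.6 to 27.0) and Thbs2 (19.1 to 28.3) overlapped there, so that this neighbouring pair is not ordered beyond its spread. In controls, Sparcl1 (26.0 to 27.6) and Thbs1 (23.6 to 26.1) also overlapped.

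Most of the other members rose with LIN9 loss in both experiments, by smaller factors. In experiment 1, 8 of the 9 genes were called higher and 0 lower, where 11.1% of the 19752 genes tested were called higher and 9.78% lower. The median log2 fold change of the 9 genes was 0.90, against 0.02 over all genes. This count and this median include Spp1. In experiment 2, of the 8 genes other than Spp1, 7 were called higher and 0 lower, where 12.8% of 17675 genes were called higher and 10.5% lower. Their median was 0.68 against 0.01. Between the Sav1 KO groups, 8 of 8 were called higher with LIN9 loss and 0 lower, where 11.8% of genes were called higher and 11.6% lower, with a median of 0.89 against 0.03. Double knockouts compared with controls gave 8 of 8 higher (10.7% of genes higher and 9.96% lower, median 0.90 against 0.03). That comparison shares its controls with the LIN9 comparison of experiment 2 and its double knockouts with the one between Sav1 KO groups. The members were chosen with earlier results of these data known, so these counts and medians are not independent of the choice.

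The same ventricles had more RNA of several non-muscle cell types. With LIN9 loss, 11.1% of all genes tested were called higher in experiment 1, 12.8% in experiment 2 and 11.8% between the Sav1 KO groups. The shares called lower were 9.78%, 10.5% and 11.6%. Markers of fibroblasts and cushion mesenchyme were called higher in 7 of 8 genes in experiment 1 and in 8 of 8 in both LIN9 comparisons of experiment 2. Their summed level was 1891 to 2188 CPM in LIN9 wt and 3970.0 to 4423 CPM in LIN9 KO of experiment 1. In experiment 2 it was 2349 to 2834 CPM over both LIN9 wt groups and 4169.9 to 6102 CPM over both LIN9 KO groups. Epicardial markers were higher in 6 of 7 genes in each of these 3 comparisons, with sums of 302 to 316 CPM in LIN9 wt and 537 to 616 CPM in LIN9 KO of experiment 1, and of 226 to 282 CPM and 480.0 to 609.9 CPM over the same genotypes of experiment 2. Macrophage markers were higher in 10 of 12 (experiment 1), 7 of 12 (experiment 2) and 10 of 12 (between Sav1 KO groups). Summed macrophage markers stood at 134 to 142 CPM in LIN9 wt and 252 to 262 CPM in LIN9 KO of experiment 1, and in experiment 2 at 118 to 152 CPM over both LIN9 wt groups and 249.96 to 325 CPM over both LIN9 KO groups. Erythroid markers were higher in 4 of 5 genes in experiment 1 and 5 of 5 in both others. Their sum was 5093 to 7274 CPM in LIN9 wt and 18414 to 48743 CPM in LIN9 KO of experiment 1, and 2469 to 3696 CPM and 6177 to 20967 CPM over the same genotypes of experiment 2. Endothelial and endocardial markers were higher in 3, 3 and 5 of 8 genes and lower in 0, 1 and 1 across these comparisons. Smooth muscle markers were higher in 1 of 5 genes in each and lower in 1, 0 and 1, and megakaryocyte markers were higher in 3, 2 and 0 of 5. The smooth muscle counts, and the 0 of 5 for megakaryocytes, are near the shares over all genes and are no result about these markers. Cartilage and bone markers, which share Sox9 with the fibroblast list, were higher in 2 of 7, 3 of 6 and 2 of 6 and lower in 1 in each. Cardiomyocyte markers ran the other way, with 5 of 7 lower in each of the 3 comparisons and 0 higher. Their sum was 20118 to 20445 CPM in LIN9 wt and 8979.9 to 12648 CPM in LIN9 KO of experiment 1, and 22316 to 25179 CPM and 11080 to 13876 CPM over the same genotypes of experiment 2. No marker of any list was called in a Sav1 comparison, where 0.017% and 0.0113% of all genes were called with and without LIN9, so that a count of 0 is at the background. Of the markers listed, Actc1 and Alas2 are listed at 0 in all 18 libraries. In such bulk tissue, more cells of a type cannot be told apart from more RNA per cell. The part of these cell types in the rise of the 9 genes was not tested.

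**Figure D2:**
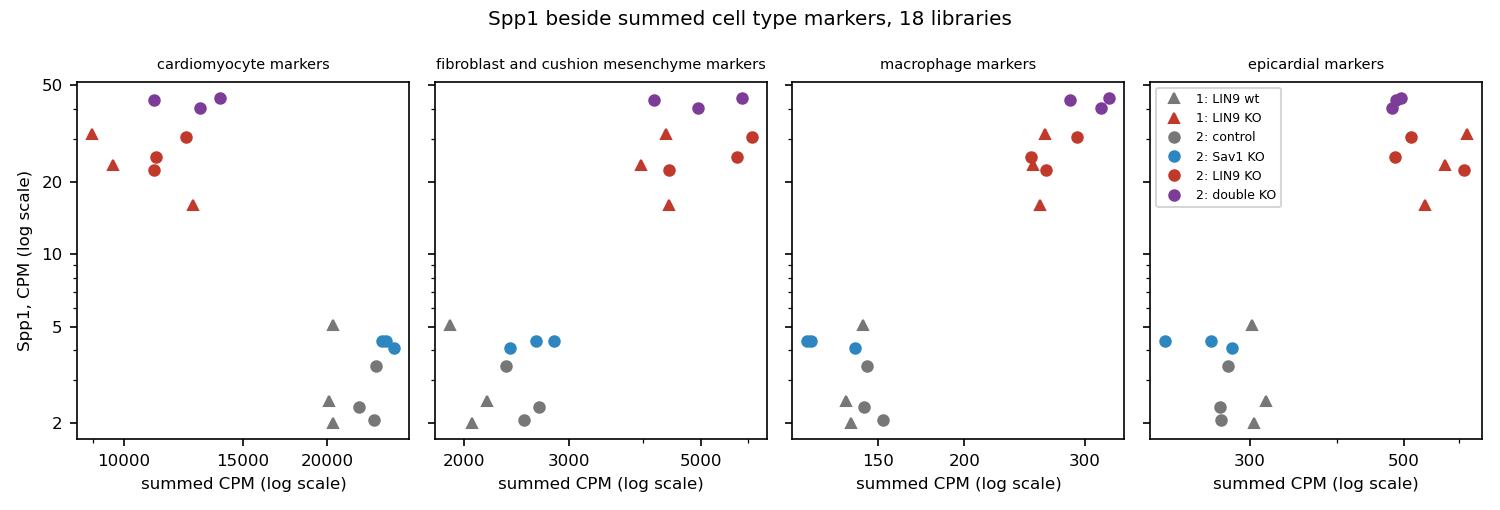
Spp1 level (vertical, CPM, log scale) against the summed level of 4 cell type marker lists (horizontal, CPM, log scale) in each of the 18 libraries; triangles are experiment 1, circles experiment 2. Libraries of LIN9 KO and LIN9 wt genotypes fall into separate clouds on both axes of every panel.

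Set against the summed fibroblast and cushion markers, Spp1 and the other members differed. This ratio was added after the values had been seen. It was not taken for the erythroid markers. Their sum spanned 5093 to 7274 CPM in LIN9 wt and 18414 to 48743 CPM in LIN9 KO of experiment 1. Whether Spp1 rose beyond that sum was not tested. Spp1 amounted to 0.113%, 0.0970% and 0.269% of the summed fibroblast and cushion markers in LIN9 wt and to 0.590%, 0.363% and 0.719% in LIN9 KO libraries of experiment 1. The groups did not overlap, and the mean log2 difference was 1.90. In experiment 2 the difference was 2.24 with Sav1 and 2.40 without it. These are chosen values without a test, since Spp1 was picked by its rise in that experiment. Relative to macrophage markers, Spp1 lay 2.06, 2.47 and 2.02 higher on the log2 scale in the same comparisons, again without overlap. The values of experiment 2 are chosen here too. For the other 8 genes, the differences relative to fibroblast and cushion markers ran from -1.05 to 0.31 in experiment 1, from -0.64 to 0.02 in experiment 2 and from -0.55 to 0.21 between the Sav1 KO groups. Sparc was lower relative to these markers in every LIN9 KO library than in any LIN9 wt library of its comparison, at 32.1%, 33.2% and 32.6% of the sum against 42.9%, 50.7% and 45.4% in experiment 1.

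Periostin, a matrix protein that aids collagen cross-linking, was among the most abundant members. In experiment 1 Postn stood at 452, 339.6 and 419 CPM in LIN9 wt and at 805, 735 and 716 CPM in LIN9 KO. These groups were well apart, with a log2 fold change of 0.90 ± 0.13 (adjusted p = 0.00017). In experiment 2 controls stood at 451, 733 and 681 CPM and LIN9 KO at 609.7, 1024 and 932 CPM. Here the groups overlapped, and the log2 fold change of 0.46 ± 0.23 did not pass (adjusted p = 0.198), although it did without replicate 1 of LIN9 KO (0.64, adjusted p = 0.0159). Sav1 KO libraries stood at 513, 693 and 579.6 CPM and double knockouts at 1216, 1103 and 1043 CPM. Every double knockout lay above every other library of experiment 2. Postn rose by 0.91 ± 0.23 between the Sav1 KO groups (adjusted p = 0.0181) and by 0.85 ± 0.23 from control to double knockout (adjusted p = 0.028). Both calls rested on few libraries. The first was lost without replicate 1 or 3 of Sav1 KO (adjusted p = 0.0655 and 0.0548) or replicate 1 or 2 of the double knockout (0.0642 and 0.0502). The second was lost without control replicate 1 (0.0595) or any double knockout replicate (0.0920, 0.0758 and 0.0566 without replicates 1, 2 and 3).

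Tenascin C is a large anti-adhesive hexamer of remodelling tissue. In experiment 1 Tnc stood at 25.4, 29.3 and 22.1 CPM in LIN9 wt and 70.8, 63.6 and 54.0 CPM in LIN9 KO. The log2 fold change was 1.29 ± 0.13 (adjusted p = 9.4e-06). In experiment 2 controls stood at 37.6, 46.3 and 41.5 CPM and LIN9 KO at 55.9, 64.6 and 69.0 CPM. With Sav1 also lost, the values were 37.0, 47.3 and 33.1 CPM for LIN9 wt and 80.8, 68.3 and 109.6 CPM for LIN9 KO. LIN9 wt and LIN9 KO libraries did not overlap in either Sav1 background. The rise was 0.59 ± 0.16 with Sav1 (adjusted p = 0.0100) and 1.14 ± 0.16 without it (adjusted p = 1.9e-05). The former call was lost without control replicate 1 (adjusted p = 0.0643) or LIN9 KO replicate 2 (0.0532). The difference between these rises, the interaction, was 0.54 ± 0.23 and did not pass (adjusted p = 0.724, edgeR). The Sav1 difference in LIN9 KO was 0.45 ± 0.15 (adjusted p = 0.232), with an overlap of the LIN9 KO library at 69.0 CPM and the double knockout at 68.3 CPM.

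The thrombospondins, which bind CD36 and CD47 and restrain vessel growth, rose with LIN9 loss in each comparison. Thbs1, which can also activate latent TGF-beta, stood at 146, 183 and 90.0 CPM in LIN9 wt and 369, 350.0 and 316 CPM in LIN9 KO of experiment 1 (log2 fold change 1.30 ± 0.23, adjusted p = 0.0043). The LIN9 wt libraries ranged widely here, and without LIN9 KO replicate 2 the adjusted p lay just above the threshold. In experiment 2 Thbs1 ran from 135 to 179 CPM over both LIN9 wt groups and from 227 to 350.0 CPM over both LIN9 KO groups. Its log2 fold changes were 0.87 ± 0.16 (adjusted p = 0.00076) and 0.83 ± 0.16 (adjusted p = 0.0011). Thbs2 stood at 65.1, 56.6 and 69.7 CPM in LIN9 wt and 99.8, 128 and 118 CPM in LIN9 KO of experiment 1 (0.85 ± 0.12, adjusted p = 0.00012). In experiment 2 it ran from 72.6 to 86.1 CPM over both LIN9 wt groups and from 134 to 198 CPM over both LIN9 KO groups. Thbs2 rose by 1.11 ± 0.12 with Sav1 (adjusted p = 1.0e-07) and by 1.10 ± 0.12 without it (adjusted p = 1.2e-07).

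SPARC and its relatives bind collagen and calcium. Sparc rose from 948 ± 94.2 to 1390.3 ± 101 CPM in experiment 1 (log2 fold change 0.55 ± 0.13, adjusted p = 0.0063). In experiment 2 it stood at 996 ± 70.6 CPM in controls, 1592 ± 196 with LIN9 loss, 1099 ± 37.4 with Sav1 loss and 1432 ± 195 with both. The LIN9 wt libraries spanned 941 to 1124 CPM and the LIN9 KO libraries 1286 to 1791 CPM, with no overlap. Its rise was 0.68 ± 0.11 with Sav1 (adjusted p = 2.6e-05) and 0.38 ± 0.11 without it (adjusted p = 0.0095), the latter lost without double knockout replicate 3 (adjusted p = 0.128) and, just above the threshold, without Sav1 KO replicate 2. Sparcl1, also called hevin, rose from 62.8 ± 5.19 to 86.2 ± 14.2 CPM in experiment 1 (0.46 ± 0.12, adjusted p = 0.0152). That call was lost without LIN9 wt replicate 2 (adjusted p = 0.0912) or LIN9 KO replicate 2 (0.0571). In experiment 2 Sparcl1 spanned 70.3 to 85.4 CPM in LIN9 wt and 97.5 to 143 CPM in LIN9 KO libraries. It rose by 0.68 ± 0.11 with Sav1 (adjusted p = 4.6e-05), by 0.47 ± 0.11 without it (adjusted p = 0.0031) and by 0.45 ± 0.11 from control to double knockout (adjusted p = 0.0048). Without double knockout replicate 2, the last had an adjusted p of 0.0504.

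The SMOC proteins, modular calcium-binding relatives of SPARC that can antagonise BMP signalling, parted from each other in experiment 1. Smoc1 stood at 25.9, 32.1 and 24.5 CPM in LIN9 wt and 23.4, 31.0 and 28.4 CPM in LIN9 KO. These groups overlapped in full, with a log2 fold change of 0.01 ± 0.14 (adjusted p = 0.989). In experiment 2 Smoc1 stood at 24.3, 25.7 and 27.0 CPM in controls and at 35.8, 41.3 and 30.9 CPM with LIN9 loss. Sav1 KO libraries stood at 22.9, 14.5 and 22.5 CPM and double knockouts at 32.7, 31.3 and 45.2 CPM. All 6 libraries without LIN9 lay above all 6 with LIN9. The rise was 0.49 ± 0.17 with Sav1 (adjusted p = 0.0354), 0.86 ± 0.18 without it (adjusted p = 0.00059) and 0.50 ± 0.17 from control to double knockout (adjusted p = 0.0354). DESeq2 did not make the first and the last of these calls (adjusted p = 0.115 and 0.108). The first was also lost without any control replicate (adjusted p = 0.113, 0.112 and 0.0651 without replicates 1, 2 and 3), LIN9 KO replicate 1 or 2 (0.0539 and 0.230) or Sav1 KO replicate 1 (0.0517). The last was lost without any control replicate (0.108, 0.0921 and 0.0635) or double knockout replicate 3 (0.298). The difference between experiments was not tested, since they are separate count tables. Smoc2 behaved more evenly. It stood at 28.2, 23.3 and 21.4 CPM in LIN9 wt and 42.5, 51.1 and 46.8 CPM in LIN9 KO of experiment 1 (0.94 ± 0.12, adjusted p = 9.2e-05). In experiment 2 its LIN9 wt libraries spanned 24.2 to 31.5 CPM and its LIN9 KO libraries 44.7 to 73.9 CPM. Smoc2 rose by 1.08 ± 0.17 with Sav1 (adjusted p = 2.8e-05) and by 1.14 ± 0.17 without it (adjusted p = 1.8e-05).

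**Figure D3:**
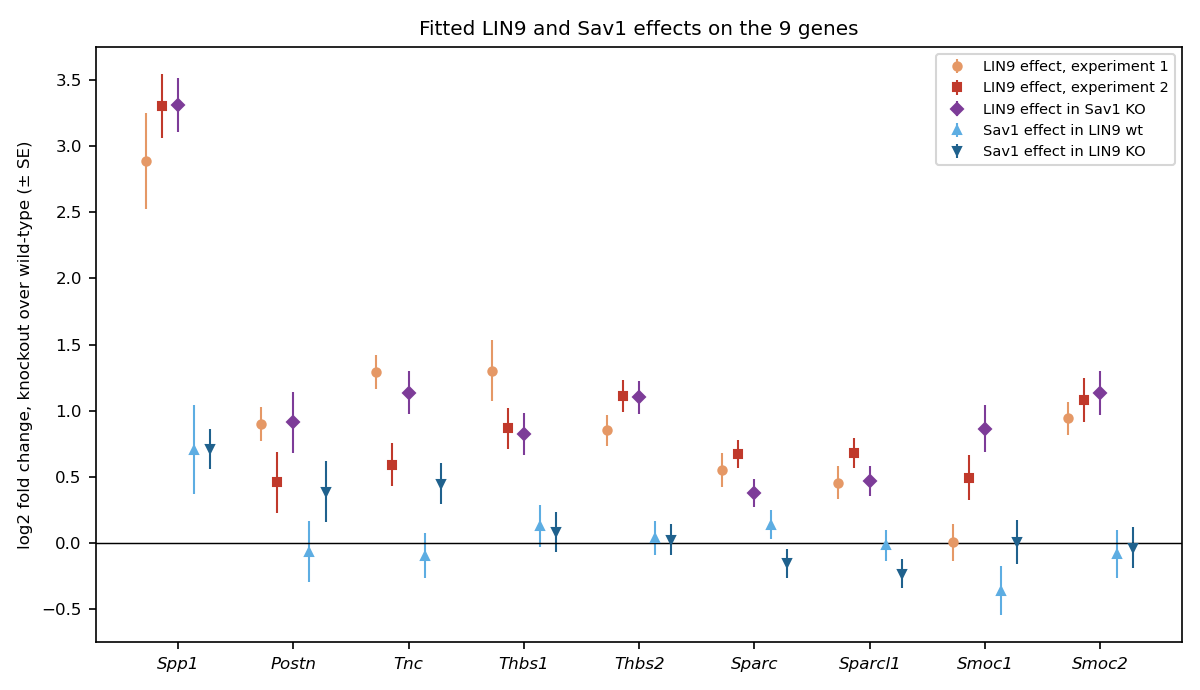
Fitted log2 fold change of knockout over wild-type for each gene, with SE as bars, for 3 LIN9 and 2 Sav1 comparisons. LIN9 effects on Spp1 lie near 3, those on the other genes between 0.01 and 1.30, and Sav1 effects on the other 8 genes between -0.36 and 0.45. The Spp1 values of experiment 2 are chosen values without a test.

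Smoc2 and Thbs2 are neighbours on chromosome 17. Over all 12 libraries of experiment 2 the Pearson r of their log2 CPM was 0.98, and over the 6 of experiment 1 it was 0.94. Unlinked pairs were about as alike, with 0.96 and 0.92 for Smoc2 and Thbs1 and 0.91 and 0.95 for Smoc2 and Sparc. Over the 6 libraries with LIN9 in experiment 2 r for Smoc2 and Thbs2 was 0.78, and over the 6 without it 0.82. These libraries share depth and scaling, and the values are a description. Dact2, the protein-coding gene on the far side of Smoc2, rose in the LIN9 comparison of experiment 1 by 0.74 and of experiment 2 by 1.45 on the log2 scale. Wdr27, on the far side of Thbs2, was not called in either (-0.20 ± 0.50 and -0.39 ± 0.94, adjusted p = 0.83 in both).

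With Sav1 loss no tested member was called in either LIN9 background, where almost no gene was called at all, so that these counts are at the background and are no result about the members. In the LIN9 wt background 0 of 8 genes were called by edgeR, and 0 were called by DESeq2, where edgeR called 3 of 17675 genes (0.017%), namely Sptb, Slit2 and Gm4742. At an unadjusted p under 0.05, 0 of the 8 members and 693 of all genes were counted. Log2 differences ran from -0.36 ± 0.18 for Smoc1 to 0.14 ± 0.11 for Sparc. All Sav1 KO libraries lay below all controls for Smoc1 (adjusted p = 0.999). In the LIN9 KO background 0 of 8 genes were called by edgeR or DESeq2, where edgeR called 2 of 17675 genes (0.0113%), Mt1 and H1f0. Here 2 of the 8 members, Tnc and Sparcl1, and 2093 of all genes had an unadjusted p under 0.05, and differences ran from -0.23 ± 0.11 for Sparcl1 to 0.45 ± 0.15 for Tnc. The difference between the Sav1 effects in the backgrounds was called for 0 of 8 members and 0% of all genes by edgeR, with 0 by DESeq2, and Tnc was the only member at an unadjusted p under 0.05, as were 1156 of all genes. These interaction values ran from -0.29 ± 0.15 for Sparc to 0.54 ± 0.23 for Tnc. SE of the Sav1 differences were 0.11 to 0.23 for the 8 genes.

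The receptors of these ligands moved unevenly. Of 10 osteopontin receptor genes, 5 were called higher with LIN9 loss in experiment 1, 5 in experiment 2 and 6 between the Sav1 KO groups, with 0 lower in each. Over all genes tested, 11.1%, 12.8% and 11.8% were called higher and 9.78%, 10.5% and 11.6% lower. Itgav, the alpha v integrin chain that binds RGD sites, rose by 0.89 ± 0.11, 1.17 ± 0.11 and 1.70 ± 0.11 on the log2 scale in these comparisons (adjusted p = 5.7e-05, 5.7e-09 and 9.1e-12). Its partner chain Itgb5 rose by 0.71 ± 0.14, 1.09 ± 0.12 and 0.90 ± 0.12, and the leukocyte and epicardial chain Itga4 by 1.85 ± 0.21, 1.29 ± 0.20 and 1.65 ± 0.20. Itga8 was the fourth to be called in all 3. From control to double knockout 5 genes were called higher and 2 lower, the latter being Itgb3 (-0.60 ± 0.18) and Itga5 (-0.36 ± 0.13). There 10.7% of all genes were called higher and 9.96% lower. Cd44, the hyaluronan receptor that also binds osteopontin, varied strongly between libraries and was not called. In experiment 2 it stood at 269.6, 342 and 431 CPM in controls and at 137, 119.7 and 1109.5 CPM in LIN9 KO. Sav1 KO libraries stood at 157, 179 and 193 CPM and double knockouts at 478, 867 and 975 CPM. The difference between the Sav1 KO groups was 2.13 ± 0.82, the widest of this list there, without overlap (adjusted p = 0.103). In experiment 1 Cd44 spanned 81.4 to 182 CPM in LIN9 wt and 96.9 to 155 CPM in LIN9 KO, and the groups overlapped.

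Of 11 receptor genes for the other members, 5 rose in experiment 1, 8 in experiment 2 and 10 between the Sav1 KO groups, with 0 lower. Itgav, Itgb1 and Itga9 are on both receptor lists, so the counts of these lists are not separate. The shares of all genes were 11.1%, 12.8% and 11.8% higher and 9.78%, 10.5% and 11.6% lower. The thrombospondin scavenger Lrp1 rose by 1.00 ± 0.11, 1.45 ± 0.17 and 1.14 ± 0.17, and the syndecan Sdc4 by 0.96 ± 0.14, 1.43 ± 0.14 and 1.17 ± 0.15. Egfr and Ptprz1, which bind tenascin C, also rose in all 3 comparisons. Cd36, the classical thrombospondin receptor, stood at -0.01 ± 0.12 in experiment 1 (adjusted p = 0.97) and at 0.06 ± 0.10 in experiment 2 (adjusted p = 0.73). It rose by 0.39 ± 0.10 between the Sav1 KO groups (adjusted p = 0.0036). No receptor of either list was called in a Sav1 comparison, where 0.017% and 0.0113% of all genes were called in LIN9 wt and LIN9 KO, so that the count of 0 is at this background. Among the receptors, Itgav stood at -0.41 ± 0.11 (adjusted p = 0.566) and Itga9 at -0.37 ± 0.13 (adjusted p = 0.999) with Sav1 loss in LIN9 wt, and Sdc4 at -0.46 ± 0.13 (adjusted p = 0.147) in LIN9 KO.

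The other matricellular and family genes were uneven. With LIN9 loss, 11.1% of all genes tested were called higher in experiment 1, 12.8% in experiment 2 and 11.8% between the Sav1 KO groups. The shares called lower were 9.78%, 10.5% and 11.6%. Of 6 matricellular genes outside these families (Tgfbi, Fbln1, Fbln2, Fbln5, Mgp and Aebp1), 6 rose in experiment 1 and 5 in each LIN9 comparison of experiment 2, with median log2 fold changes of 0.90, 0.97 and 0.81. Fbln2, an extracellular fibulin of cushion tissue, rose by 1.16 ± 0.12 in experiment 1 (adjusted p = 1.3e-05) and by 1.07 ± 0.19 in experiment 2 (adjusted p = 0.0016). Among tenascins, Tnxb rose by 1.02 ± 0.17, 1.72 ± 0.16 and 2.13 ± 0.16 in the 3 LIN9 comparisons, whereas Tnr and Tnn had too few reads to be tested in experiment 2. Of the remaining SPARC family genes, Fstl1 rose in all 3 comparisons (0.60 ± 0.13, 0.48 ± 0.09 and 0.56 ± 0.09) as the 1 gene called in each. Spock2 was lower in experiment 1 (-1.06 ± 0.22, adjusted p = 0.0028) and between the Sav1 KO groups (-0.87 ± 0.29, adjusted p = 0.0265), and was not called in experiment 2 (-0.17 ± 0.27, adjusted p = 0.71). Spock3 was higher in experiment 1 (0.69 ± 0.20, adjusted p = 0.0238) and between the Sav1 KO groups (0.98 ± 0.33, adjusted p = 0.0289), and was not called in experiment 2 (0.66 ± 0.36, adjusted p = 0.20). Of 6 CCN genes, a family that holds known targets of YAP, Ctgf was the 1 called in experiment 1 (0.52 ± 0.13, adjusted p = 0.0095), and Ctgf and Cyr61 were called in experiment 2 (0.46 ± 0.14 and 0.90 ± 0.13). The count of 1 of 6 in experiment 1 is near the 11.1% of all genes and is no result about the family. Between the Sav1 KO groups 3 of 6 were called higher, Ctgf (0.74 ± 0.14), Cyr61 (0.60 ± 0.13) and Wisp1 (0.38 ± 0.12, adjusted p = 0.022). With Sav1 loss 0 of the 6 CCN genes were called in LIN9 wt or LIN9 KO. There 0.017% and 0.0113% of all genes were called, so that this count is no result about these genes. Cyr61 stood at 0.45 ± 0.14 in LIN9 wt (adjusted p = 0.856), and Nov at 0.84 ± 0.32 and Wisp3 at 0.99 ± 0.35 in LIN9 KO (adjusted p = 0.276 and 0.243). Thbs4 was called in experiment 2 (0.55 ± 0.14, adjusted p = 0.0057) and between the Sav1 KO groups (0.64 ± 0.14, adjusted p = 0.0023), and not in experiment 1 (0.41 ± 0.19, adjusted p = 0.18). Thbs3 is listed at 0 in all 18 libraries.

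**Figure D4:**
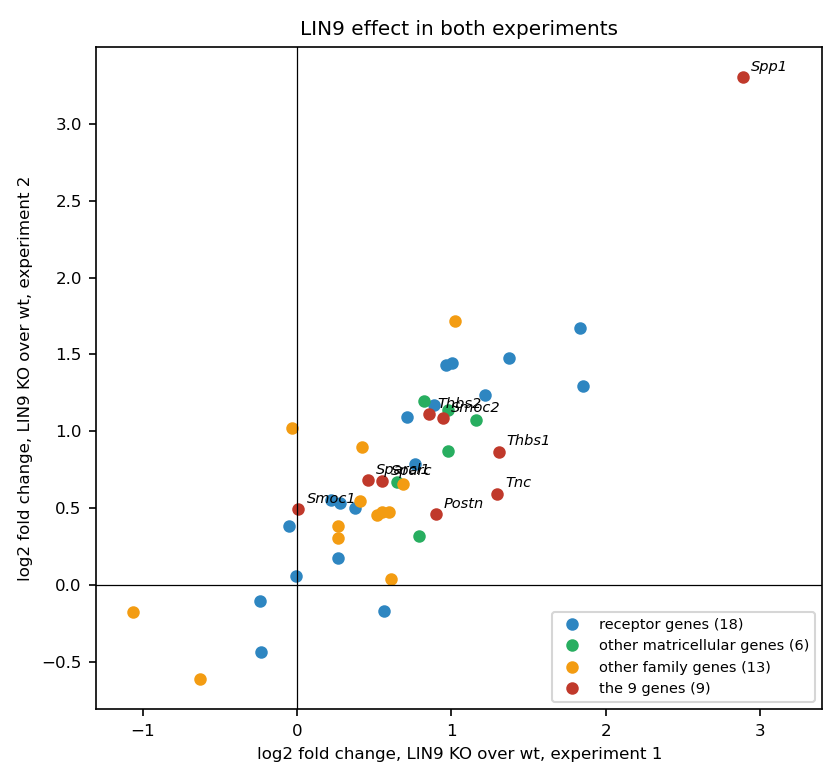
Log2 fold change of LIN9 KO over LIN9 wt in experiment 1 (horizontal) and experiment 2 (vertical) for the 9 genes, 18 receptor genes, 6 other matricellular genes and 13 further family genes; each point is a gene. Spp1, which was chosen by its measured rise in double knockouts of experiment 2, lies at 2.89 and 3.30, and Smoc1 lies at 0.01 and 0.49.

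Genes with the pattern most like that of Spp1 were sought among 12396 genes with a mean of at least 5 CPM. Likeness was the Pearson r of log2 CPM over the 12 libraries of experiment 2, which fall into libraries with and without LIN9, so r mainly reads that split. Among the 5 highest were Scarf2 (0.98), a scavenger receptor, Prss23 (0.97), a secreted serine protease, Ssr3 (0.97), a part of the translocon of the endoplasmic reticulum, and Actg2 (0.97), the enteric smooth muscle actin. Over the 6 libraries of experiment 1, r was between 0.90 and 0.96 for these 4. The 3 lowest were Ednrb (-0.99), the endothelin B receptor, Neurl1b (-0.98), a ubiquitin ligase, and Tcap (-0.98), the titin cap of the sarcomere, with -0.95, -0.96 and -0.89 in experiment 1. Within the 6 LIN9 wt libraries of experiment 2, r ran from 0.16 for Prss23 to 0.99 for Actg2 among the 4 genes with a positive r. Within the 6 LIN9 KO libraries it ran from -0.04 for Actg2 to 0.92 for Prss23. Ednrb stood at 218 ± 7.51 CPM in controls, 187 ± 24.1 with Sav1 loss, 82.2 ± 4.51 with LIN9 loss and 67.1 ± 6.32 with both.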

How the data were processed

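Total RNA from E13.5 ventricles was measured in 18 libraries (NEBNext Ultra II, poly(A)-selected). The count tables deposited by the authors hold whole-number read counts per Ensembl gene without further normalization. Per the study's methods, reads were mapped with TopHat2 2.1.0 and Bowtie2 to mm10, brought down to the smallest library and counted with summarizeOverlaps. Reads removed in this way lower the precision of scarce genes such as Spp1. The overlap mode and strandedness are not given in the sources used here. The 4 ChIP-seq libraries were left aside. Further tables hold the authors' own fold changes, log2 CPM and p-values, and were not used.

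The 4 identifiers that occurred more than once per table were kept once. Counts were TMM-normalized and tested in 1 fit per experiment with edgeR's quasi-likelihood test (edgeR 4.0.16, R 4.3.3, robust estimates) on genes with a mean count above 1, without a replicate block. P-values were adjusted after Benjamini and Hochberg, with calls at 0.05. Log2 CPM used a prior count of 2. SE were the log2 fold change divided by the square root of edgeR's F, except for the Spp1 interaction, where this quotient is unstable near 0 and the SE of the Sav1 differences were combined. The script was tested on simulated data. DESeq2 (1.42.0), other scalings and filters and leaving out libraries were tried as alternatives. Named genes were the 9 members, Lin9, Sav1, listed genes past the threshold or defining a cell type, and the 5 highest and 3 lowest correlates of Spp1, of which 1 is not reported here. Sptb, Slit2, Gm4742, Mt1 and H1f0, genes near the members, Cd44, Cd36 and genes listed at 0 were named after their values had been seen. The members and lists were chosen with earlier results of these data known.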

Additional observations from a re-analysis of the deposited data

How the results depend on the processing

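Alternatives were RLE factors, total counts, DESeq2, no filter, filterByExpr, non-robust estimates, a replicate block, the 6 libraries of a comparison alone and leaving out each library. The count of members called kept within 1.5 times in all, except that without a filter 1 member, Tnc, was called for Sav1 loss in LIN9 KO (0 otherwise). The replicate numbers did not pair the samples, since no pair of groups had a correlation above 0.1 for every number (0.087, 0.027 and 0.082 in experiment 1, and the highest, 0.39, 0.089 and 0.17, for control and LIN9 KO in experiment 2). Under the replicate block the members called were again 8 and 7 for LIN9 loss in experiments 1 and 2, no member call changed, and the Smoc1 difference for Sav1 loss in LIN9 KO turned to -0.0019. Smoc1 in experiment 1 turned to -0.020 with total counts, and the Thbs2 interaction to 0.0044 with filterByExpr. Smoc1 in experiment 2 and in the double knockout comparison also missed the threshold with non-robust estimates (adjusted p = 0.0544 and 0.0545). The cause was not tested.

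With single libraries left out, uncalled log2 differences that changed sign ran from -0.086 to 0.13 for Smoc1 with LIN9 loss in experiment 1. For Sav1 loss in LIN9 wt they ran from -0.25 to 0.059 for Postn, from -0.017 to 0.11 for Thbs2, from -0.26 to 0.013 for Tnc and from -0.098 to 0.039 for Sparcl1. For Sav1 loss in LIN9 KO they ran from -0.074 to 0.27 for Thbs1, from -0.078 to 0.18 for Thbs2, from -0.17 to 0.14 for Smoc1 and from -0.18 to 0.14 for Smoc2. For the interaction they ran from -0.19 to 0.15 for Thbs1, from -0.11 to 0.15 for Thbs2 and from -0.089 to 0.23 for Smoc2. The untested Spp1 interaction ran from -0.24 to 0.18.

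Counts over all genes moved by more than 1.5 times in 4 of 7 comparisons, and in the double knockout comparison for higher calls alone. LIN9 loss in experiment 1 gave 4131 calls, and 2722 without LIN9 wt replicate 3 (lower calls from 1932 to 1249). Higher calls from control to double knockout went from 1887 to 1148 without double knockout replicate 2. Sav1 loss in LIN9 wt gave 3 calls, 22 without a filter, 1 with non-robust estimates, 31 on its 6 libraries alone and 0 to 7 with a library left out. Sav1 loss in LIN9 KO gave 2 calls, 11 by DESeq2, 309 without a filter, 84 under the replicate block, 0 with filterByExpr, non-robust estimates or its 6 libraries alone, and up to 378 (without LIN9 KO replicate 3). The interaction gave 0 calls, 17 without a filter, 64 without LIN9 KO replicate 3 and 2 without control replicate 1. Depth limits Spp1 most, with 6 to 10 reads per control library of experiment 2.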
